A study of Mus musculus with 48 samples.

Results

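Pax genes encode transcription factors that hold a paired domain, and 6 of them, Pax2, Pax3, Pax5, Pax6, Pax7 and Pax8, were followed through neuronal differentiation of mouse embryonic stem cells. They were taken by symbol from a table of 36935 genes, and all 6 were found. The table holds raw read counts of 48 libraries, with 4 genotypes, 4 days and 3 replicates in each of 16 groups. The genotypes were the knockouts KAT6A-/-, KAT6B-/- and KAT6A-/-; KAT6B-/- (the double knockout), and wild-type E14, a line of mouse embryonic stem cells. KAT6A and KAT6B are histone acetyltransferases of the MYST family. Day 0 cells were stem cells kept with LIF and serum. Day 2 and day 6 cells were embryoid bodies without LIF. Medium changes at days 4 and 6 added 10 µM all-trans retinoic acid, so day 2 cells had not received it. Day 15 cells had been dissociated at day 8 and grown on poly-D-lysine and laminin in N2 and then B27 medium. Libraries were made from ribosomal RNA-depleted total RNA with a strand-specific kit. The 3 replicates came from separate differentiation experiments, and the number of clones behind each knockout is not given in the sources used here.

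Pax proteins bind DNA through the paired domain, and in vertebrates they pattern tissues in the embryo and keep progenitors undifferentiated. By sequence and expression they fall into subgroups. Pax2, Pax5 and Pax8 act at the midbrain-hindbrain boundary and in inhibitory interneurons of hindbrain and spinal cord, and outside the nervous system in kidney, ear, thyroid and B cells. Pax3 and Pax7 mark the dorsal neural tube, neural crest and muscle progenitors. Pax6 marks radial glia and neural progenitors of forebrain and spinal cord, and it directs eye development.

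The first 90 bases of the paired box are given from a GENCODE M21 transcript of each gene. They were found by translating each transcript and searching for the conserved start of the domain. Capitals mark bases that differ from Pax6, and the set is shown because reads of similar members could be assigned to the wrong one. The number of capitals, from 25 in Pax7 to 36 in Pax8, does not follow the subgroups.
Pax6: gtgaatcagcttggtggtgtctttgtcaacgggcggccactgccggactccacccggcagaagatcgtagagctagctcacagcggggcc
Pax2: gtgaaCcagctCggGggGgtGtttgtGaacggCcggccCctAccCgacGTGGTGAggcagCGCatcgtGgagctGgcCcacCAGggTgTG
Pax5: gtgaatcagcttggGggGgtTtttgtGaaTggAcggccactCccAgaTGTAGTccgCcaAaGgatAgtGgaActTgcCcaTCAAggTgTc
Pax8: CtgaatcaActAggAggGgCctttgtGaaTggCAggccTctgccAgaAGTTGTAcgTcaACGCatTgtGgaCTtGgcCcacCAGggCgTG
Pax3: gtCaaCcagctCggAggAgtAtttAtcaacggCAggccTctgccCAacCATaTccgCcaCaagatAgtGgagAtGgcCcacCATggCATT
Pax7: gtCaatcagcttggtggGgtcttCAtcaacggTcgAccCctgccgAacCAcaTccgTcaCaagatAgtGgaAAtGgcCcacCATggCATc

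Over 300 bases of the box, the encoded residues were 99% the same in Pax2 and Pax5 and 97% in Pax3 and Pax7, against 81% in Pax2 and Pax6 and 58% in Pax3 and Pax6. The bases differed more, at 80.7% the same in Pax2 and Pax5 and 81% in Pax3 and Pax7. The longest stretch of bases shared by any transcripts of 2 members was 37, in Pax3 and Pax6, against a read length of 150. How the submitters' counting treated reads that fit more than 1 gene is not given in the sources used here.

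In the table's GRCm39 coordinates, Pax2 (ENSMUSG00000004231) lies on the plus strand of chromosome 19 from 44744484 to 44826310. Pax3 (ENSMUSG00000004872) lies on the minus strand of chromosome 1 from 78077904 to 78173771. Pax5 (ENSMUSG00000014030) and Pax7 (ENSMUSG00000028736) lie on the minus strand of chromosome 4, from 44524757 to 44710487 and from 139464373 to 139560839. Pax6 (ENSMUSG00000027168) lies on the plus strand of chromosome 2 from 105499245 to 105527709, and Pax8 (ENSMUSG00000026976) on its minus strand from 24310572 to 24365611. Their reads over the 48 libraries numbered 14363 for Pax2, 7192 for Pax3, 1517 for Pax5, 43073 for Pax6, 1669 for Pax7 and 7977 for Pax8.

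Libraries held 22499375 to 72229461 counts each. Levels are CPM, counts divided by the size of their library and expressed per mega counts, with library sizes scaled by the TMM method over the 48 libraries. Kat6a stood at 50.2% to 66.9% of the E14 mean in the KAT6A knockout and at 59.8% to 75.2% in the double knockout, below all E14 libraries of its day in each library. Kat6b stood at 59.8% to 96.3% of the E14 mean in the KAT6B knockout, below all E14 libraries in 3, 3, 3 and 2 of 3 libraries at days 0, 2, 6 and 15, and at 65.4% to 94.6% in the double knockout, below them in 3, 1, 1 and 2. Reads outside a deleted stretch would still be counted, and which parts were deleted is not given in the sources used here. The library labelled KAT6B knockout day 15 replicate 1 had 126 CPM of Kat6b, above the E14 libraries at 91.8 to 105 CPM. On the first principal component of its day it lay at -42.8, nearer to E14 than the other KAT6B knockout libraries. That was outside the E14 range of -107.5 to -53.5 and beside KAT6A knockout replicate 3 at -42.2. Its 6 mesenchyme markers summed to 17600 CPM, against 1640 to 4040 CPM in E14. The library labelled double knockout day 15 replicate 3 had 109 CPM of Kat6b. At each day the library farthest from 0 on that day's first component was picked, whether or not it was an outlier. These were E14 replicate 1 at day 0 and KAT6B knockout replicate 1 at day 2, replicate 1 at day 6 and replicate 2 at day 15. They are said below to have stood apart in this sense only. Calls that were lost or gained without these 4 libraries are given with their values.

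Every member but Pax5 rose in E14 between day 2 and day 6, the step in which retinoic acid was given, and the members then took different courses.

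Pax6 peaked at day 6. In the 3 E14 libraries it stood at 8.12, 6.84 and 9.67 CPM at day 0, at 4.29, 3.72 and 3.14 CPM at day 2, at 153, 63.6 and 93.3 CPM at day 6, and at 20.2, 17.6 and 24.4 CPM at day 15. The groups of successive days did not overlap. By edgeR, Pax6 fell at day 2 against day 0 (log2 fold change -1.15 ± 0.28 SE, adjusted p = 0.0118), rose at day 6 against day 2 (4.84 ± 0.31, adjusted p = 1.67e-07) and fell at day 15 against day 6 (-2.32 ± 0.27, adjusted p = 8.27e-06). The day 2 call ended without E14 replicate 3 of day 0 (adjusted p = 0.0582) and with all 48 libraries in 1 fit (adjusted p = 0.0986), and held without replicate 1 of day 0, which stood apart (-1.15, adjusted p = 0.0328). The other two calls held without any 1 library.

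Pax7 was seen in a single window. It had 11.3, 3.55 and 6.21 CPM in the E14 libraries of day 6, and stayed at or under 0.368 CPM in each E14 library of days 0, 2 and 15. It rose at day 6 against day 2 (5.53 ± 0.52, adjusted p = 3.68e-06 by edgeR) and fell at day 15 against day 6 (-5.46 ± 0.51, adjusted p = 1.14e-06). Both calls held without any 1 library.

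Pax3, the close relative of Pax7 in dorsal neural tube, did not follow it at the last step. It had 0.198, 0.233 and 0.522 CPM at day 0 in E14, 0.326, 0.0834 and 0.0811 CPM at day 2, 29.5, 5.79 and 10.2 CPM at day 6, and 24.7, 8.71 and 19.8 CPM at day 15. The rise at day 6 against day 2 was 6.63 ± 0.77 (adjusted p = 2.16e-05 by edgeR), larger than that of any other member. Day 15 overlapped day 6 (0.22 ± 0.53, adjusted p = 0.744), with a 95% interval of -0.92 to 1.37.

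Pax2 was the one member that edgeR called higher over both of the later steps in E14. Its levels were 0.495, 0.0874 and 0.768 CPM at day 0, 0.0889, 0.25 and 0.669 CPM at day 2, 16.4, 7.26 and 10.4 CPM at day 6, and 31.4, 32.3 and 28.4 CPM at day 15. By edgeR the log2 change was 5.01 ± 0.58 at day 6 against day 2 (adjusted p = 1.95e-05) and 1.44 ± 0.46 at day 15 against day 6 (adjusted p = 0.0163). The later call ended without E14 replicate 2 of day 6 (1.16, adjusted p = 0.0606), by DESeq2 (adjusted p = 0.0769) and with all 48 libraries in 1 fit (adjusted p = 0.152). Its mean in E14 at day 15 was 30.7 ± 2.01 CPM (SD, n = 3).

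Pax8 moved less and Pax5 not past the test. Pax8 had 3.02, 2.04 and 3.35 CPM at day 0 in E14, 2.67, 3.31 and 3.51 CPM at day 2, 7.15, 7.82 and 6.88 CPM at day 6, and 7.14, 6.72 and 7.61 CPM at day 15. It rose at day 6 against day 2 (1.24 ± 0.24, adjusted p = 0.000956 by edgeR), a call that ended with all 48 libraries in 1 fit (1.20, adjusted p = 0.0549). At day 15 against day 6 its change was -0.02 ± 0.23, with a 95% interval of -0.52 to 0.48. Pax5 lay between 0.325 and 2.37 CPM in the 12 E14 libraries, with its highest mean at day 15 (1.59 ± 0.674 CPM, SD, n = 3). Its change at day 6 against day 2 was 0.89 ± 0.49 (adjusted p = 0.162), and it passed the test without E14 day 2 replicate 1 (1.54, adjusted p = 0.0343).

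**Figure D1:**
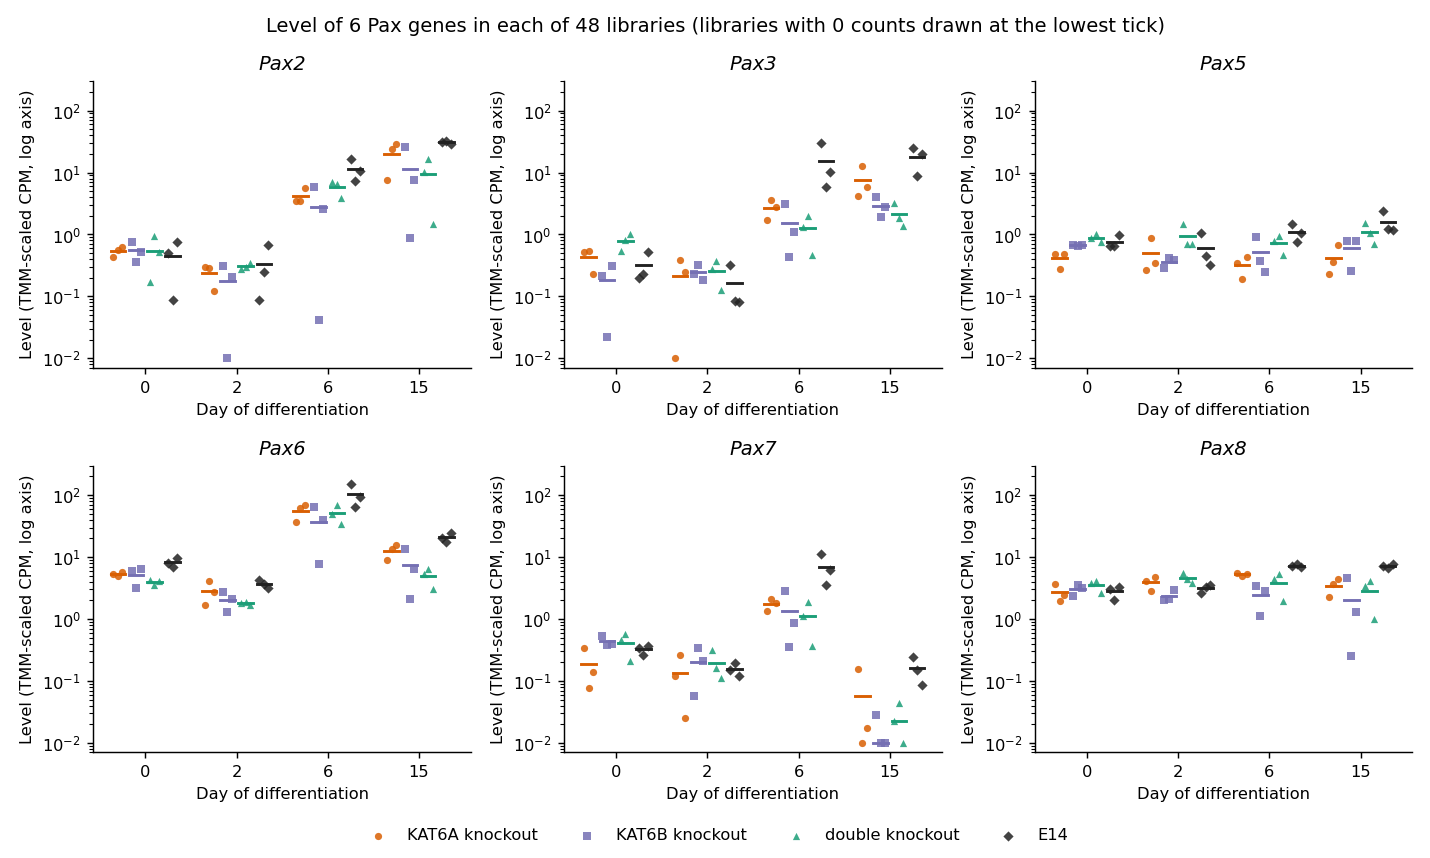
Level of each Pax gene in TMM-scaled CPM (log axis) by day of differentiation, with 1 point per library, a bar at each group mean, and libraries with 0 counts drawn at 0.01. In E14, Pax6 and Pax7 stand highest at day 6, Pax2 at day 15, and Pax5 stays under 2.4 CPM.

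Divided by the length of each gene's joined exons, Pax6 led in E14 at day 6 and Pax2 at day 15. At day 6 Pax6 reached 8.84 ± 3.91 CPM per kilobase, Pax3 2.45 ± 2.04, Pax2 2.1 ± 0.859, Pax7 1.2 ± 0.673, Pax8 1.2 ± 0.0791 and Pax5 0.123 ± 0.0397 (SD, n = 3). There Pax6 lay above the rest, Pax5 below, and each of the 4 between overlapped its neighbours in this order. At day 15 the order was Pax2 at 5.68 ± 0.372 CPM per kilobase, Pax3 at 2.87 ± 1.33, Pax6 at 1.77 ± 0.294 and Pax8 at 1.18 ± 0.0731, of which only the neighbours Pax3 and Pax6 overlapped. Pax5 and Pax7 were at 0.18 ± 0.0761 and 0.0275 ± 0.0135.

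Counted over all genes, the steps were large. Of the 6 members, 1 passed the test at day 2 against day 0 in E14, 5 at day 6 against day 2 and 3 at day 15 against day 6, where 21.6%, 41.7% and 54.6% of all genes tested passed. The median log2 change of the members at day 6 against day 2 was 4.93 in E14, beside 0.0394 for all genes tested.

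In the knockouts the same steps were fitted within each line, so the E14 libraries have no part in them. Pax6 kept its course. At day 6 against day 2 it rose by 4.32 ± 0.35 in the KAT6A knockout, by 4.25 ± 0.79 in the KAT6B knockout and by 4.82 ± 0.32 in the double knockout (adjusted p = 1.07e-06, 0.00189 and 3.87e-07 by edgeR). At day 15 against day 6 its log2 change was -2.11 ± 0.31, -2.37 ± 0.72 and -3.36 ± 0.30 in the 3 lines (adjusted p = 7.76e-05, 0.0189 and 1.22e-06). The KAT6B knockout call at day 15 was lost without its day 15 replicate 3 (adjusted p = 0.0723), without its day 6 replicate 1 (-1.69, adjusted p = 0.0943), and without the 4 libraries that stood apart (-1.25, adjusted p = 0.176). Pax6 also fell at day 2 against day 0 in the double knockout (-1.15 ± 0.29, adjusted p = 0.0241), a call that ended without any 1 of its libraries but day 0 replicate 2 (adjusted p = 0.0609 to 0.0781) and with all 48 libraries in 1 fit (0.145). The single knockouts gave -0.90 ± 0.32 and -1.26 ± 0.72 (adjusted p = 0.0652 and 0.325). That of the KAT6A knockout passed by DESeq2 (adjusted p = 0.0269), and by edgeR with the replicate block (0.0131) and without its day 2 replicate 2 (-1.27, adjusted p = 0.0288).

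Pax7 rose and fell in every line. At day 6 against day 2 the rise was 3.69 ± 0.84 in the KAT6A knockout, 2.77 ± 0.82 in the KAT6B knockout and 2.52 ± 0.72 in the double knockout (adjusted p = 0.00276, 0.0223 and 0.0131 by edgeR). In the KAT6B knockout that call was lost without day 2 replicate 1 (2.28, adjusted p = 0.075), day 2 replicate 3 (2.70, adjusted p = 0.0757) or day 6 replicate 1 (1.58, adjusted p = 0.172), without the 4 libraries that stood apart (1.16, adjusted p = 0.295) and with the replicate block (2.38, adjusted p = 0.0612). In the double knockout it was lost without day 2 replicate 3 (2.21, adjusted p = 0.0539) or day 6 replicate 2 (1.91, adjusted p = 0.0792). By day 15 its reads had fallen to 7 against 243 at day 6 in the KAT6A knockout, to 1 against 159 in the KAT6B knockout and to 4 against 163 in the double knockout. Scaled to library size these were 2.38% (95% interval 0.946% to 4.97%), 0.525% (0.0132% to 2.97%) and 1.88% (0.505% to 4.89%) of the day 6 level, intervals that cover counting error only. All 3 falls passed the test (adjusted p = 0.000457, 0.000595 and 0.000227) and held without any 1 library.

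Pax3 rose at day 6 against day 2 in the KAT6A knockout (3.63 ± 0.71, adjusted p = 0.00105 by edgeR), the KAT6B knockout (2.68 ± 0.77, adjusted p = 0.0197) and the double knockout (2.31 ± 0.59, adjusted p = 0.00681). The KAT6B knockout call was lost without day 2 replicate 1, 2 or 3 (adjusted p = 0.0629, 0.0531 and 0.0815), without day 6 replicate 1 (1.63, adjusted p = 0.126) and without the 4 libraries that stood apart (1.58, adjusted p = 0.191). At day 15 against day 6 it rose further in the KAT6A knockout (1.52 ± 0.59, adjusted p = 0.0417). That call was lost without day 6 replicate 1, 2 or 3 (adjusted p = 0.142, 0.0514 and 0.0832) or day 15 replicate 2 (0.91, adjusted p = 0.234), with all 48 libraries in 1 fit (0.0546) and with either other filter on low counts (0.052 and 0.0579).

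Pax2 rose at day 6 against day 2 in the KAT6A knockout (4.16 ± 0.52, adjusted p = 3.25e-05 by edgeR) and the double knockout (4.22 ± 0.78, adjusted p = 0.000874). In the KAT6B knockout the change was 4.10 ± 1.48 with adjusted p = 0.052. It passed with all libraries kept by DESeq2 (adjusted p = 0.0272), and by edgeR with the replicate block (0.0135) and with all 48 libraries in 1 fit (0.00287). Without day 6 replicate 2, which had 2 reads of Pax2, it was 4.62 (adjusted p = 0.0195). At day 15 against day 6 Pax2 rose in the KAT6A knockout (2.31 ± 0.42, adjusted p = 0.000409). The KAT6B knockout gave 1.97 ± 1.25 (adjusted p = 0.221) and the double knockout 0.71 ± 0.65 (adjusted p = 0.372). Without the 4 libraries that stood apart the KAT6B knockout change was 3.66 (adjusted p = 0.0494), and without day 15 replicate 3 the double knockout change was 1.22 (adjusted p = 0.0216).

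Pax5 passed no step in any knockout. Neither did Pax8, whose changes at day 6 against day 2 were 0.46 ± 0.32, 0.12 ± 0.72 and -0.22 ± 0.47 in the KAT6A, KAT6B and double knockouts. Pax8 fell at day 15 against day 6 in the KAT6B knockout once day 15 replicate 1, whose Kat6b lay above E14, was left out (-1.58, adjusted p = 0.0449 by edgeR).

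In counts, the KAT6A knockout had 0, 4 and 4 members past the test over the 3 steps, where 19.7%, 45.9% and 55.4% of all genes passed. For the KAT6B knockout the counts were 0, 3 and 2, beside 4.02%, 32.8% and 44.4% of all genes. For the double knockout they were 1, 4 and 2, beside 11.2%, 42.1% and 55.2%. At day 2 against day 0, where edgeR called 0 members in the single knockouts, 1 member in the KAT6A knockout and 0 in the KAT6B knockout had an unadjusted p under 0.05, beside 33.6% and 22% of all genes, and DESeq2 called 1 and 0.

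**Figure D2:**
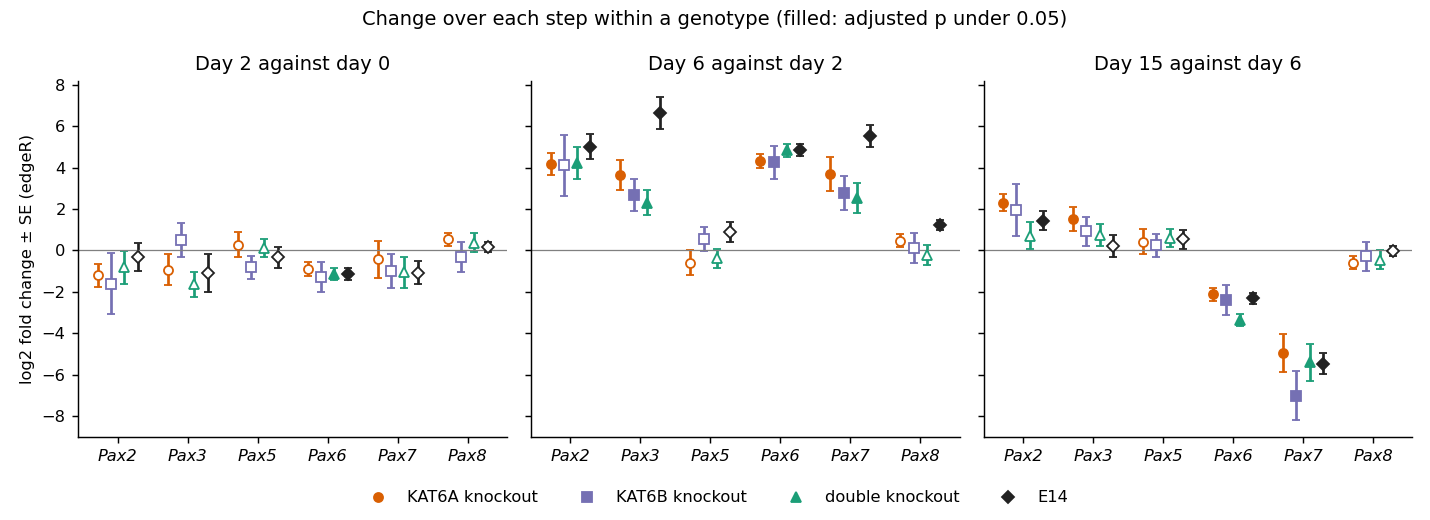
The log2 fold change of each Pax gene, with its standard error, over the 3 steps in each genotype, with filled symbols where the adjusted p was under 0.05. At day 6 against day 2 Pax3 and Pax7 rose by 6.63 and 5.53 in E14 and by 2.31 to 3.69 in the knockouts, while Pax6 rose by 4.25 to 4.84 in all 4 genotypes.

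Whether a step differed between a knockout and E14 was tested as an interaction, with the 24 libraries of each knockout and E14 in 1 fit. The Pax3 rise at day 6 against day 2 was smaller than in E14 by 2.95 ± 1.14 in the KAT6A knockout, 3.97 ± 1.14 in the KAT6B knockout and 4.28 ± 1.01 in the double knockout, as log2 differences with unadjusted p of 0.017, 0.00239 and 0.000383. Those of Pax7 were -1.80 ± 0.98, -2.81 ± 0.96 and -2.98 ± 0.88, with unadjusted p of 0.078, 0.00784 and 0.00257. Those of Pax6 were -0.48 ± 0.44, -0.61 ± 0.82 and 0.02 ± 0.39, with 95% intervals of -1.40 to 0.44, -2.32 to 1.09 and -0.79 to 0.82. None passed after adjustment over all genes by edgeR, with adjusted p from 0.952 to 1 for Pax3, Pax6 and Pax7. The 3 tests share the E14 libraries.

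Over the 9 interactions edgeR called 0 of 6 members each time. At the 3 successive steps it called 0%, 0% and 0.0461% of all genes for the KAT6A knockout, 0%, 0% and 1.57% for the KAT6B knockout, and 0%, 0% and 4.54% for the double knockout. At an unadjusted p under 0.05 the KAT6A knockout had 0, 1 and 0 members over the steps, beside 5.95%, 4.97% and 11.4% of all genes. The KAT6B knockout had 0, 2 and 0, beside 2.65%, 3.79% and 16%, and the double knockout 0, 3 and 1, beside 4.59%, 3.37% and 21.2%. DESeq2 called 1, Pax3 in the double knockout at day 6 against day 2 (adjusted p = 0.038). Without E14 day 6 replicate 1, which had the highest Pax3 and Pax6 of its group, edgeR called the larger fall of Pax6 in the double knockout at day 15 (-1.44, adjusted p = 0.0459, against -1.04 and 0.127 with it).

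Set against E14 day by day, edgeR called 2 differences, a lower Pax6 at day 0 and a lower Pax3 at day 15, both in the double knockout. The fitted changes of all members tested were below 0 at days 6 and 15, and all but that of Pax3 in the double knockout at day 15 missed the test there. The 3 knockouts are compared with the same 3 E14 libraries at each day, so they are not independent of each other.

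At day 0 Pax6 was lower in the double knockout. It had 4.28, 3.59 and 4.1 CPM in double knockout cells, against 8.12, 6.84 and 9.67 CPM in E14 cells, 48.6% of the E14 mean with no overlap. The log2 change was -1.07 ± 0.24 (adjusted p = 0.0386 by edgeR). The call ended without double knockout replicate 1, 2 or 3 (adjusted p = 0.0815, 0.135 and 0.0963) or E14 replicate 1 or 3 (adjusted p = 0.075 and 0.1), of which E14 replicate 1 stood apart. It also ended with all 48 libraries in 1 fit (-1.04, adjusted p = 0.394), and across the other alternatives it held. The KAT6A knockout had 5.24, 5.02 and 5.77 CPM and the KAT6B knockout 5.91, 3.17 and 6.32 CPM, also below all E14 libraries (-0.67 ± 0.24 and -0.71 ± 0.24, adjusted p = 0.93 and 0.317). Marker sums moved in the same libraries. The 5 naive stem cell markers summed to 1620 to 1970 CPM in the double knockout and 2030 to 2550 CPM in E14, the 6 mesenchyme markers to 429 to 700 CPM and 162 to 255 CPM, the 8 neuron markers to 240 to 266 CPM and 344 to 366 CPM, and the 5 neural progenitor markers to 357 to 415 CPM and 482 to 691 CPM. None of these lists overlapped E14, none of their markers was at 0, and their part in the Pax6 result was not tested. The neuron list is not specific to neurons, since in E14 it summed to only 45.9 to 55.7 CPM at day 6.

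At day 2 no member passed by edgeR. Pax6 had 1.82, 1.91 and 1.68 CPM in double knockout cells against 4.29, 3.72 and 3.14 CPM in E14 cells, a log2 change of -1.06 ± 0.34 with adjusted p = 0.162 (0.049 by DESeq2). Pax8 stood above all E14 libraries in the double knockout, at 5.48, 4.34 and 3.78 CPM against 2.67, 3.31 and 3.51 CPM (0.50 ± 0.25, adjusted p = 0.434).

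The counts were 0, 0 and 1 of 6 members at day 0 in the KAT6A, KAT6B and double knockouts, where 0%, 0.0106% and 2.09% of all genes passed. At day 2 they were 0 in each, beside 0.0102%, 0% and 1.12%. At an unadjusted p under 0.05 there were 2, 1 and 1 members at day 0, beside 4.75%, 11.8% and 18.2% of all genes, and 0, 1 and 1 at day 2, beside 10.3%, 4.06% and 12.7%. DESeq2 called 0, 0 and 1 at each of these days, Pax6 each time.

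At day 6 no member passed the test by edgeR, and the levels of Pax2, Pax3, Pax7 and Pax8 lay below all E14 libraries in each knockout. Pax3 had 1.71, 3.65 and 2.77 CPM in KAT6A knockout cells, 3.05, 0.437 and 1.08 CPM in KAT6B knockout cells and 1.32, 2.02 and 0.473 CPM in double knockout cells, against 29.5, 5.79 and 10.2 CPM in E14 cells. All 9 knockout libraries lay below the lowest E14 library, and the group means were 17.9%, 10% and 8.38% of the E14 mean. The log2 changes were -2.50 ± 0.75, -3.35 ± 0.79 and -3.62 ± 0.80, with adjusted p of 0.809, 0.139 and 0.188 by edgeR. DESeq2 called the KAT6B and the double knockout (adjusted p = 0.00713 and 0.00366), as did edgeR with all 48 libraries in 1 fit (adjusted p = 0.0365 and 0.0234).

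Pax7 had 1.34, 2.1 and 1.8 CPM in KAT6A knockout cells, 2.85, 0.353 and 0.874 CPM in KAT6B knockout cells and 1.12, 1.92 and 0.369 CPM in double knockout cells, against 11.3, 3.55 and 6.21 CPM in E14 cells. Here too each knockout library lay below each E14 library. The changes were -2.02 ± 0.70, -2.39 ± 0.72 and -2.67 ± 0.72 on the log2 scale (adjusted p = 0.809, 0.204 and 0.279 by edgeR).

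Pax2 had 3.5, 3.46 and 5.58 CPM in KAT6A knockout cells, 5.88, 0.0416 and 2.54 CPM in KAT6B knockout cells and 6.97, 6.56 and 3.86 CPM in double knockout cells, against 16.4, 7.26 and 10.4 CPM in E14 cells. The gap to the lowest E14 library was small, and the changes of -1.46 ± 0.88, -2.03 ± 0.90 and -1.002 ± 0.86 had adjusted p of 0.809, 0.372 and 0.829 by edgeR. Pax8 had 5.49, 4.99 and 5.4 CPM in KAT6A knockout cells, 3.37, 1.1 and 2.8 CPM in KAT6B knockout cells and 4.42, 5.25 and 1.98 CPM in double knockout cells, against 7.15, 7.82 and 6.88 CPM in E14 cells. Its change in the KAT6B knockout was -1.59 ± 0.39 (adjusted p = 0.137, or 0.0039 by DESeq2).

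Pax6 overlapped E14 in each knockout at day 6. It had 36.3, 61.5 and 70.5 CPM in KAT6A knockout cells, 63.9, 7.84 and 39.3 CPM in KAT6B knockout cells and 49.8, 68.3 and 34.4 CPM in double knockout cells, against 153, 63.6 and 93.3 CPM in E14 cells. The changes were -0.90 ± 0.61, -1.48 ± 0.62 and -1.06 ± 0.61 (adjusted p = 0.809, 0.354 and 0.726 by edgeR). KAT6B knockout replicate 2 had the lowest level of Pax2, Pax3, Pax6, Pax7 and Pax8 among the 12 libraries of the day. Without KAT6B knockout replicate 1, which stood apart, the KAT6B knockout changes were -3.12 for Pax2, -4.31 for Pax3, -2.12 for Pax6, -3.50 for Pax7 and -1.88 for Pax8, with adjusted p from 0.0965 to 0.238. Pax5 had 0.352, 0.191 and 0.434 CPM in KAT6A knockout cells, 0.922, 0.374 and 0.244 CPM in KAT6B knockout cells and 0.798, 0.947 and 0.458 CPM in double knockout cells, against 1.45, 0.748 and 1.07 CPM in E14 cells. It overlapped E14 in the KAT6B and double knockouts, and its changes were -1.74 ± 0.54, -1.11 ± 0.52 and -0.60 ± 0.51 (adjusted p = 0.809, 0.389 and 0.822 by edgeR).

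At day 6 edgeR called 0 of 6 members in each knockout, where it called 0%, 0.0292% and 0.0682% of all genes in the KAT6A, KAT6B and double knockouts. At an unadjusted p under 0.05 there were 3, 5 and 3 members, beside 5.3%, 13% and 8.12% of all genes, and DESeq2 called 0, 2 and 1. All libraries of the knockout lay below all E14 libraries for 5 members in the KAT6A knockout, beside 5.78% of all genes, for 4 in the KAT6B knockout, beside 8.79%, and for 4 in the double knockout, beside 5.99%. The median log2 change of the 6 members was -1.60, -1.81 and -1.03, beside -0.000236, -0.0205 and -0.0154 for all genes tested.

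These are bulk libraries, in which fewer cells of a type and less RNA per cell cannot be told apart. The summed level of 5 neural progenitor markers at day 6 was 174 to 192 CPM in KAT6A knockout, 144 to 291 CPM in KAT6B knockout and 163 to 192 CPM in double knockout libraries, against 225 to 399 CPM in E14 libraries, with none of the 5 at 0 and Fabp7 under 1 CPM in each group. The list is not specific to progenitors, since in E14 it summed to 482 to 691 CPM at day 0 and 388 to 397 CPM at day 2. Its sum in the KAT6B knockout at day 6 overlapped E14. Other lists were apart from E14 at day 6. In the KAT6B knockout endoderm markers summed to 321 to 342 CPM, against 173 to 226 CPM in E14. There 2 neural crest markers summed to 1.99 to 4.19 CPM, against 6.2 to 9.94 CPM. Neuron markers summed to 42.6 to 43.8 CPM in the KAT6A and 28.1 to 33.7 CPM in the KAT6B knockout, against 45.9 to 55.7 CPM. Muscle markers were higher in the KAT6A, KAT6B and double knockouts, at 6.43 to 10, 6.14 to 9.19 and 6.58 to 10.1 CPM, against 4.46 to 5.92 CPM. B cell markers, each under 1 CPM, summed to 0.65 to 0.99 CPM in the double knockout, against 0.33 to 0.603 CPM. Their part in the Pax results was not tested. Percentages of the progenitor marker sum were taken within each library. Pax3 was at 0.932% to 2.1% in the KAT6A knockout, 0.248% to 1.05% in the KAT6B knockout and 0.29% to 1.2% in the double knockout, against 2.57% to 7.4% in E14. Pax7 was at 0.727% to 1.21%, 0.201% to 0.98% and 0.227% to 1.13% in the 3 knockouts, against 1.58% to 2.83% in E14. Both percentages lay below all E14 libraries in each knockout. Pax6 was at 19.8% to 36.7%, 4.45% to 27.3% and 21.1% to 40.4% in the 3 knockouts, against 28.3% to 38.4% in E14, so that only the KAT6B knockout did not overlap E14. These ratios were chosen after the levels were seen and carry no test.

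**Figure D3:**
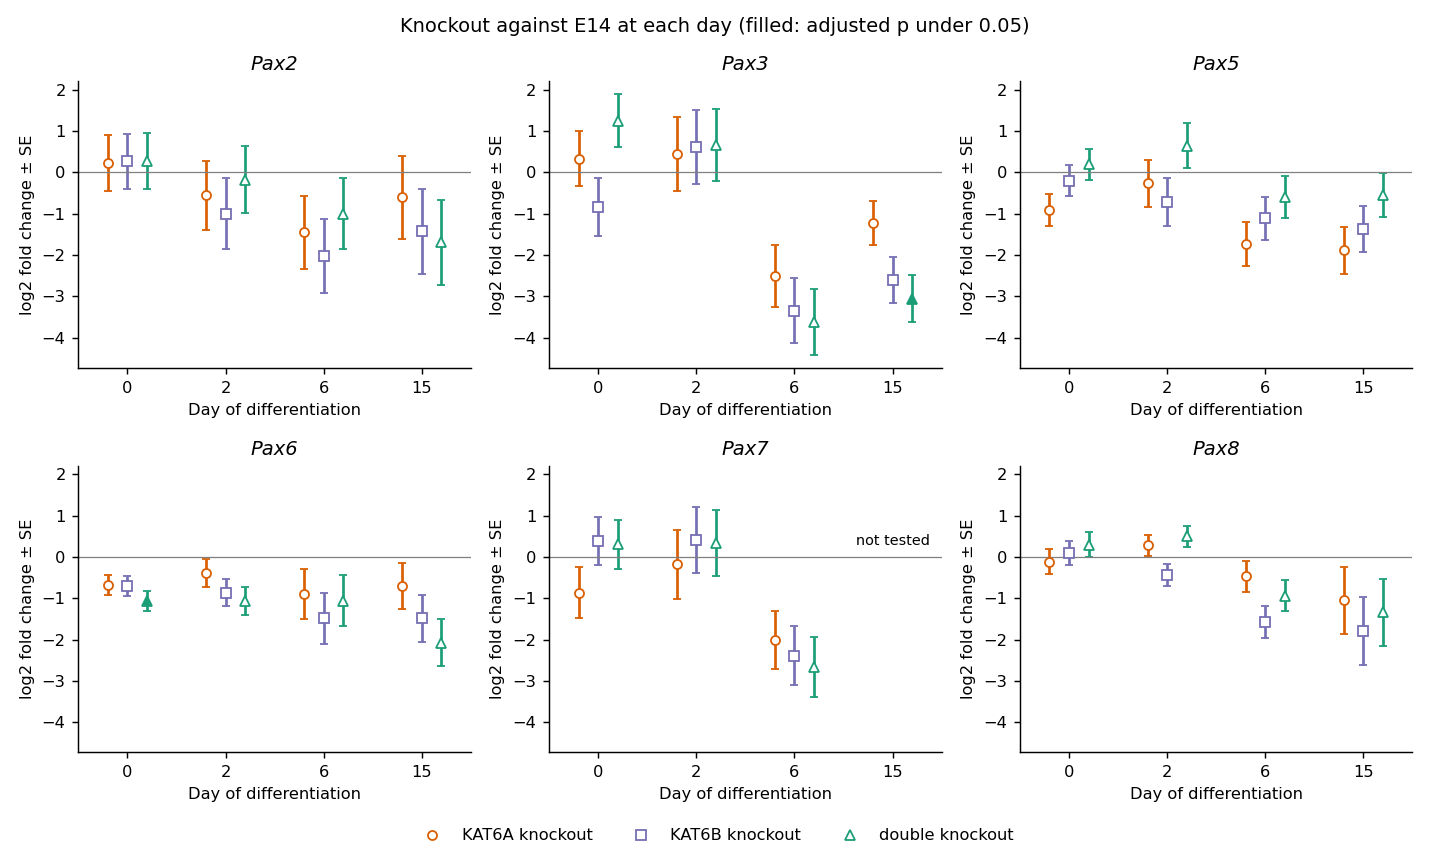
The log2 fold change of each knockout against E14, with its standard error, at the 4 days, with filled symbols where the adjusted p was under 0.05. Only Pax6 at day 0 and Pax3 at day 15, both in the double knockout, are filled, and the values of days 6 and 15 lie below 0 throughout.

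At day 15 Pax3 was lower in the double knockout, the larger of the calls between knockouts and E14. It had 3.19, 1.85 and 1.37 CPM in double knockout cells, against 24.7, 8.71 and 19.8 CPM in E14 cells, 12% of the E14 mean. The log2 change was -3.06 ± 0.57 (adjusted p = 0.0275 by edgeR). It was -2.74 to -3.47 when any 1 of the 6 libraries was left out, and the call was then lost each time (adjusted p = 0.0751, 0.0848 and 0.0759 without double knockout replicate 3, 2 or 1, and 0.0842, 0.0577 and 0.117 without E14 replicate 3, 2 or 1). The replicate block lost the call (-3.09, adjusted p = 0.0624), DESeq2 and edgeR with all 48 libraries kept it, and across all alternatives the adjusted p ran from 1.88e-06 to 0.117.

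The KAT6B knockout had 4.03, 1.88 and 2.81 CPM of Pax3, also below all E14 libraries (-2.61 ± 0.56, adjusted p = 0.0653 by edgeR). With all libraries kept, this change passed by DESeq2 (-2.66, adjusted p = 0.00013) and by edgeR with all 48 libraries in 1 fit (-2.61, adjusted p = 0.00796). Without replicate 1, whose Kat6b lay above E14, the change was -2.95 and passed (adjusted p = 0.0342). Without replicate 2, which stood apart, it was -2.36 (adjusted p = 0.178). The KAT6A knockout, at 4.19, 12.9 and 5.74 CPM, overlapped E14 (-1.22 ± 0.53, adjusted p = 0.431).

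Pax6 at day 15 had 9.06, 13.6 and 15.5 CPM in KAT6A knockout cells, 13.6, 2.09 and 6.32 CPM in KAT6B knockout cells and 5.31, 6.46 and 3 CPM in double knockout cells, against 20.2, 17.6 and 24.4 CPM in E14 cells. No knockout library reached the lowest E14 library. The changes were -0.70 ± 0.55, -1.49 ± 0.56 and -2.08 ± 0.57, with adjusted p of 0.618, 0.187 and 0.0728 by edgeR. The double knockout value passed by DESeq2 (adjusted p = 0.0037), with all 48 libraries in 1 fit (0.00308) and without the libraries that stood apart (0.0332). The KAT6B knockout value passed with all 48 libraries in 1 fit (-1.5, adjusted p = 0.0326) and without its replicate 1 (-2.33, adjusted p = 0.0328). Without replicate 2, which stood apart, it was -1.04 (adjusted p = 0.327).

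Pax2 at day 15 had 7.71, 24.3 and 28.6 CPM in KAT6A knockout cells, 25.5, 0.882 and 7.59 CPM in KAT6B knockout cells and 10.2, 16.7 and 1.47 CPM in double knockout cells, against 31.4, 32.3 and 28.4 CPM in E14 cells. The libraries of a knockout lay far apart: the SD was 11, 12.7 and 7.63 CPM in the 3 knockouts and 2.01 CPM in E14. The changes were -0.60 ± 1.01, -1.42 ± 1.03 and -1.70 ± 1.04 (adjusted p = 0.805, 0.447 and 0.326 by edgeR), and the KAT6B knockout gave -2.88 without replicate 1 and -0.87 without replicate 2 (adjusted p = 0.11 and 0.672).

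Pax8 had 2.3, 3.63 and 4.39 CPM in KAT6A knockout cells, 4.59, 0.255 and 1.28 CPM in KAT6B knockout cells and 3.37, 4.15 and 0.985 CPM in double knockout cells, against 7.14, 6.72 and 7.61 CPM in E14 cells. Its changes of -1.05 ± 0.80, -1.80 ± 0.82 and -1.34 ± 0.81 had adjusted p of 0.607, 0.255 and 0.323 by edgeR. The KAT6B knockout value passed with all 48 libraries in 1 fit (-1.82, adjusted p = 0.0143) and without replicate 1 (-3.23, adjusted p = 0.0373). It was -1.27 without replicate 2 (adjusted p = 0.421). Pax5 had 0.233 to 0.673 CPM in the KAT6A knockout, 0.255 to 0.793 CPM in the KAT6B knockout and 0.704 to 1.51 CPM in the double knockout, against 1.2 to 2.37 CPM in E14. Only the double knockout overlapped E14, and its change was -0.55 ± 0.54, against -1.89 ± 0.56 in the KAT6A knockout (adjusted p = 0.547 and 0.32 by edgeR). The KAT6A knockout value passed with all 48 libraries in 1 fit (-1.89, adjusted p = 0.0332).

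Pax7 had too few reads at day 15 to enter the test fitted within that day. It did enter the fit of all 48 libraries, where it added to the calls between knockouts and E14. Its counts were 6, 0 and 1 in KAT6A knockout libraries, 1, 0 and 0 in KAT6B knockout libraries and 1, 3 and 0 in double knockout libraries, against 10, 9 and 5 in E14 libraries. Scaled to library size the KAT6A knockout stood at 0.305 of E14 (95% interval 0.111 to 0.729), the KAT6B knockout at 0.0453 (0.0011 to 0.278) and the double knockout at 0.143 (0.0362 to 0.418), intervals that cover counting error only.

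Of the 5 members tested at day 15, edgeR called 0 in the KAT6A knockout, 0 in the KAT6B knockout and 1 in the double knockout, where it called 0%, 0.0742% and 3.18% of all genes. At an unadjusted p under 0.05 there were 2, 3 and 2, beside 11.4%, 20% and 24.6% of all genes, and DESeq2 called 0, 1 and 2. The groups lay apart with the knockout lower for 4, 5 and 4 of the 5 members, beside 13.2%, 15.2% and 20.8% of all genes. Pax2 in the KAT6A knockout is among them by the scaling within day 15, although its highest library, at 28.6 CPM, just passes the lowest E14 library, at 28.4 CPM, by the scaling over 48 libraries. The median log2 change of the 5 was -1.05, -1.49 and -1.70, beside 0.00987, 0.0539 and 0.00764 for all genes.

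At day 15 the libraries of a knockout also differed widely in their neuronal markers. The summed level of 8 neuron markers was 353, 1100 and 1390 CPM in KAT6A knockout libraries, 962, 67.1 and 420 CPM in KAT6B knockout libraries and 887, 870 and 148 CPM in double knockout libraries, against 2670, 1480 and 1720 CPM in E14 libraries. KAT6A knockout replicate 1, KAT6B knockout replicate 2 and double knockout replicate 3 had the lowest marker sums of their lines, and each also had its line's lowest Pax2, Pax3, Pax6 and Pax8. Neural progenitor markers summed to 317 to 507, 95.9 to 262 and 54.4 to 246 CPM in the 3 knockouts, against 654 to 761 CPM in E14. In the other direction, 6 mesenchyme markers summed to 2170 to 6280, 4540 to 17600 and 7500 to 8460 CPM, against 1640 to 4040 CPM in E14, and 6 endoderm markers to 742 to 1430, 307 to 1670 and 1290 to 1570 CPM, against 593 to 907 CPM. Astrocyte markers summed to 1.29 to 30.4, 0.0232 to 9.27 and 0.442 to 6.49 CPM, against 48.4 to 190 CPM in E14. No marker of these lists was at 0 in a day 15 group, and the part of these cell types in the Pax results was not tested.

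As a percentage of the neuron marker sum of its library, Pax2 was at 2.06% to 2.21% in the KAT6A knockout, 1.31% to 2.65% in the KAT6B knockout and 0.992% to 1.92% in the double knockout, against 1.18% to 2.18% in E14. Pax8 was at 0.316% to 0.653%, 0.306% to 0.477% and 0.38% to 0.666%, against 0.267% to 0.454%. Set to the progenitor marker sum, Pax6 was at 2.68% to 4.38%, 2.18% to 5.2% and 2.63% to 5.51%, against 2.65% to 3.69%, and Pax3 at 1.32% to 2.54%, 1.43% to 1.96% and 0.752% to 2.55%, against 1.33% to 3.25%. Every one of these ranges overlapped that of E14. The neuron list is not specific to neurons, since it summed to 344 to 366 CPM in E14 stem cells at day 0. Those sums lie above day 15 KAT6B knockout replicate 2, at 67.1 CPM, and double knockout replicate 3, at 148 CPM. Pax3, which lay below E14 relative to progenitor markers at day 6, did not at day 15, and the ratios carry no test. The ratios of the 2 days are not on one footing, because the makeup of the sum changed. In E14 its member Fabp7 had 0.314 ± 0.107 CPM at day 6 and 306 ± 41.5 CPM at day 15 (SD, n = 3). Its members Sox1, Sox2 and Hes5 were themselves called lower in the double knockout at day 15.

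**Figure D4:**
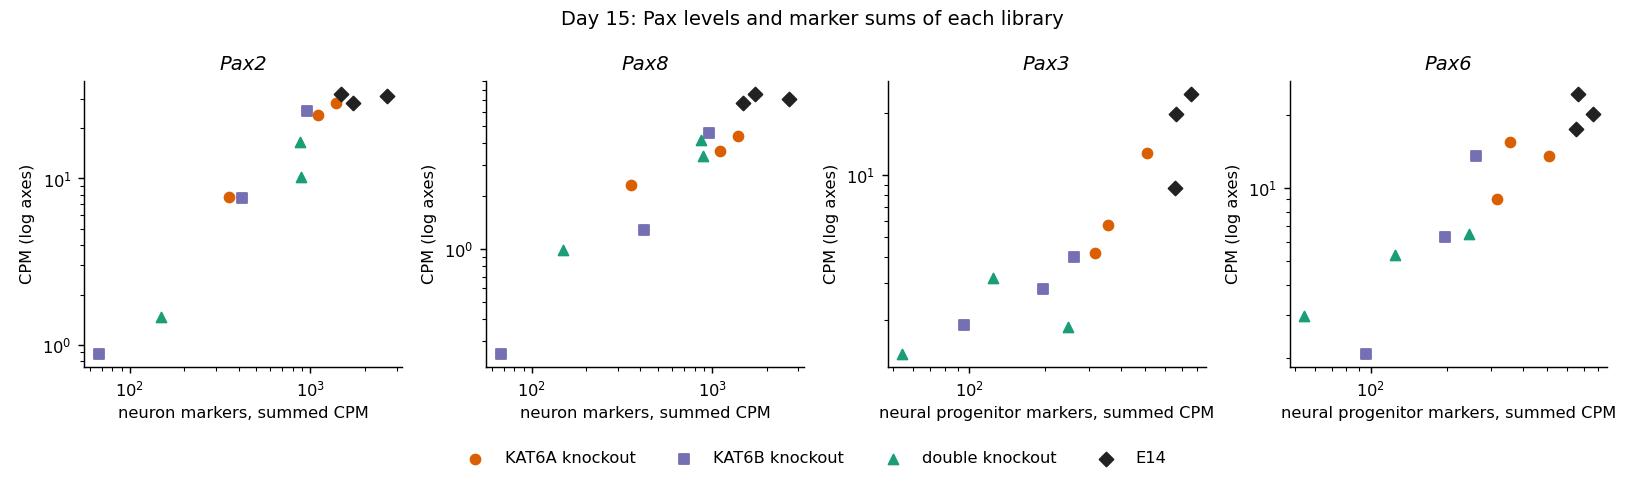
Each point is 1 library of day 15, with the summed CPM of neuron or neural progenitor markers on the horizontal axis and the CPM of a Pax gene on the vertical axis, both logarithmic. The E14 libraries sit at the upper right, and KAT6B knockout replicate 2 and double knockout replicate 3 at the lower left.

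Markers of tissues outside the nervous system that use Pax genes were mostly low at day 15. At day 15 the 3 B cell markers summed to at most 0.348 CPM and the 3 thyroid markers to at most 1.48 CPM in any library. The kidney list summed to 4.1 to 44.6 CPM, with Umod under 1 CPM in each group. It was higher earlier, at 44.1 to 113 CPM over the libraries of day 2 and 40.6 to 62.2 CPM over those of day 6. The muscle list summed to at most 11.8 CPM in the knockouts and 2.21 CPM in E14 at day 15, with Myod1 and Myog under 1 CPM in each group of each day.

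The double knockout was also compared with each single knockout, and edgeR called 0 members in the 8 comparisons. Against the KAT6A knockout it called 0.0528%, 0.0153%, 0.00974% and 0.00494% of all genes at days 0, 2, 6 and 15, and against the KAT6B knockout 0.0634%, 0.0102%, 0% and 0%. At an unadjusted p under 0.05 there were 1, 0, 0 and 3 members against the KAT6A knockout, beside 7.56%, 7.75%, 2.45% and 5.05% of all genes, and 1, 2, 0 and 0 against the KAT6B knockout, beside 6.02%, 9.13%, 13% and 4.67%. The 3 at day 15 were Pax3 (-1.84 ± 0.55), Pax6 (-1.38 ± 0.56) and Pax5 (1.35 ± 0.56), with adjusted p of 0.803, 0.961 and 0.961 by edgeR, and their groups did not overlap. DESeq2 called 1, Pax8 against the KAT6B knockout at day 2 (0.94 ± 0.26, adjusted p = 0.246 by edgeR and 0.0337 by DESeq2). Intervals were wide: for Pax2 at day 15 the 95% interval ran from -3.36 to 1.17 against the KAT6A knockout and from -2.52 to 1.97 against the KAT6B knockout.

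Genes that share a pathway or a region with the members were read from lists, and E14 shows the setting in which the members rose. Of 18 genes of the Pax6 progenitor domain and its cortical targets, 13 rose and 3 fell at day 6 against day 2 in E14 (median 3.40, all genes 0.0394). Of all genes tested, 22.1% rose and 19.6% fell at that step, and 27.3% rose and 27.3% fell at day 15 against day 6, shares against which the counts of the other lists are to be read. Dbx1, a progenitor factor of the intermediate neural tube, had 57.6 ± 48.1 CPM at day 6 and 0.0191 ± 0.0166 CPM at day 2 (SD, n = 3), a log2 change of 11.5 ± 1.15 (adjusted p = 1.7e-05 by edgeR). The proneural factor Neurog1 (6.17 ± 0.73) and the homeobox gene Irx3 (6.40 ± 0.56) rose with it, while Eomes, Fabp7 and Sox2 fell. Fabp7, a marker of radial glia, came at day 15, at 306 ± 41.5 CPM against 0.314 ± 0.107 CPM at day 6.

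Of 15 genes of dorsal neural tube and neural crest, 9 rose and 2 fell at day 6 against day 2 (median 2.46). Zic1 rose by 6.15 ± 0.76, Msx3 by 5.51 ± 0.68 and Olig3 by 4.74 ± 0.88, all dorsal progenitor genes, and Foxd3, known in neural crest and in stem cells, fell (-6.07 ± 0.42). Zic2 also fell. Of 10 genes of the midbrain-hindbrain boundary, where Pax2, Pax5 and Pax8 act in the embryo, 3 rose and 3 fell (median -0.26). Wnt1 rose to 10.7 ± 7.82 CPM at day 6, against 0.00676 ± 0.0117 CPM at day 2, while Otx2, Fgf8 and Fgf17 fell.

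Pax2 and Pax8 are expressed in inhibitory interneurons of the spinal cord, and a list of inhibitory interneuron and other spinal factors was read. Most of this list rose at the step at which Pax2 rose further. Of its 11 genes, 8 rose and 2 fell at day 15 against day 6 in E14 (median 3.83, all genes -0.0493). Among the 8 was Tlx3 (4.77 ± 0.66), listed as a spinal factor and not read here as a mark of inhibitory interneurons. The glycine transporter Slc6a5 had 34.5 ± 13.2 CPM at day 15 and 0.0766 ± 0.0666 CPM at day 6, the vesicular GABA transporter Slc32a1 23.1 ± 7.35 and 0.495 ± 0.355 CPM, and the GABA synthesis enzyme Gad1 39.9 ± 14 and 1.59 ± 0.619 CPM (SD, n = 3). The 2 that fell were Gbx1 and Ptf1a. At day 6 against day 2, 3 of the 11 had risen and 2 fallen (median 0.16).

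Of 12 genes of the network of EYA, DACH and related homeobox factors that works with Pax genes, 5 rose and 2 fell at day 6 against day 2 in E14, led by Dach1 (5.01 ± 0.34, adjusted p = 2.46e-07 by edgeR), and 1 rose and 5 fell at day 15 against day 6. Of the 11 tested genes of kidney, ear and thyroid, 7 rose and 1 fell at day 6, among them Gata3 (4.51 ± 0.64). Of 4 tested muscle genes, 2 rose at day 6, Meox1 and Lbx1, and Meox1, known in somites, was at 38.2 ± 23.5 CPM. Among 7 tested targets of Pax5 in B cells, 0 rose and 3 fell at day 6, and at day 15 1 rose, Ebf1 (70.4 ± 21.9 CPM), a gene that neurons also express, and 4 fell. Of 7 cofactors, 3 rose and 1 fell at day 6, and 2 rose at day 15.

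Between knockouts and E14 few of these genes passed. At day 15 in the double knockout, 5 of 17 tested genes of the Pax6 list were lower and 0 higher (median -2.67, all genes 0.00764), beside 1.32% of all genes lower and 1.86% higher. Sox1 had 0.985 ± 0.522 CPM in double knockout cells and 23.6 ± 2.59 CPM in E14 cells, Hes5 0.606 ± 0.458 and 20.7 ± 9.39 CPM, and Sox2 7.66 ± 2.66 and 62.8 ± 5.35 CPM (SD, n = 3). Of the dorsal list 3 of 13 were lower, Zic2 (-2.68 ± 0.56), Sox9 (-2.41 ± 0.56) and Tfap2a (-2.28 ± 0.45). Of the list of interneuron and spinal factors 1 of 10 was lower, the spinal factor Tlx3 (-4.47 ± 0.65, adjusted p = 0.0211 by edgeR). Slc6a5, Slc32a1 and Gad1 of that list did not pass. Of the 7 cofactors 1 was higher, Wwtr1, a coactivator of the Hippo pathway, at 167 ± 7.03 CPM in double knockout cells and 105 ± 9.13 CPM in E14 cells (0.67 ± 0.12, adjusted p = 0.0257). Lmx1b, a gene of the midbrain-hindbrain boundary and dorsal spinal neurons, was lower in the KAT6B knockout (-2.83 ± 0.35, adjusted p = 0.0247) and the double knockout (-2.81 ± 0.34, adjusted p = 0.0182). Sox2 was also lower in the KAT6B knockout, at 9.85 ± 3.81 CPM. At day 6, 92 genes of the 9 lists were tested and edgeR called 0 in each knockout, with 12, 28 and 22 of them at an unadjusted p under 0.05 in the KAT6A, KAT6B and double knockouts, where 5.3%, 13% and 8.12% of all genes were. The median log2 change of the Pax6 list was then -0.82, -0.94 and -0.74. At day 0 in the double knockout Fgf8, Fgf17, Gbx2 and Nes were lower, and Lmx1b and Met higher, and at day 2 Otx2 was lower and Gata3 higher.

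By the pattern of log2 levels over the 48 libraries, the genes most like each member were found among 16666 genes, and Pearson's r is given as a description of libraries that share days and lines. Pax2 was most like C1ql3 (r = 0.931), Zic1 (0.921) and Nhlh2 (0.916). Pax3 was most like Zic1 (0.905), Zic4 (0.904) and Pou3f3 (0.903). Pax6 was most like Prdm12 (0.938), Dbx1 (0.918) and Spsb4 (0.911), and Pax7 like Igdcc3 (0.908), Dgkz (0.873) and Sfrp5 (0.868). Pax8 had weaker neighbours, Slc4a8 (0.782), Cabp1 (0.774) and Elovl2 (0.768), and Pax5 weaker ones still, Gba2 (0.570), Megf11 (0.562) and Epha10 (0.552). Among the members, Pax2 and Pax3 were most alike (0.851), followed by Pax2 and Pax6 (0.693), Pax3 and Pax6 (0.691) and Pax6 and Pax7 (0.682). The relatives Pax3 and Pax7 had r = 0.199, and Pax2 and Pax5 r = 0.332.

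The other Pax genes of the table were near the floor of detection or late. Pax4 had 2 reads in all 48 libraries and Pax1 301. Pax9 came at day 15, at 4.45 ± 2.05 CPM in the KAT6A knockout, 4.09 ± 3.33 CPM in the KAT6B knockout, 3.89 ± 0.249 CPM in the double knockout and 3.3 ± 1.12 CPM in E14 (SD, n = 3), levels that overlapped. Slc25a21, on the other strand, overlaps Pax9 only from 56759419 to the Pax9 end at 56759607, and it runs on to 57244257. Over its whole length it had 1495 reads over the 48 libraries, 55.2% of the Pax9 total. An antisense gene also overlaps Pax1. Among the members, antisense genes overlap Pax2, Pax5, Pax6 and Pax8, and the strand setting of the counting is not given in the sources used here. Pax6os1 had 85 reads in all, 0.197% of the Pax6 total. Gm12462 on the other strand of Pax5 had 177, 11.7% of the Pax5 total, the largest share among the members. These shares count whole antisense genes, and how many of their reads fall on exons of a Pax gene was not examined.

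The promoters of the genes that peaked at day 6 and had an entry, Pax6 and Pax7, are shown over 250 bases before and 50 after the RefSeq start on GRCm38.p6 (Pax6 on the plus strand at chr2:105668646-105668945, Pax7 on the minus strand at chr4:139832919-139833218). Of the 6 members, 5 had entries, 8 in all, and Pax3 was not among them. Pax6 had 2 entries, of which the upstream one is shown, and the other, at chr2:105682213-105682512, held no match. Capitals mark matches on either strand to the motifs searched. These were AGGTCA and the related AGTTCA (the units of retinoic acid response elements), GTCACGC (bound by paired domains), TAATTA (bound by homeodomains), the CCAAT box and the TATAAA box.
Pax6: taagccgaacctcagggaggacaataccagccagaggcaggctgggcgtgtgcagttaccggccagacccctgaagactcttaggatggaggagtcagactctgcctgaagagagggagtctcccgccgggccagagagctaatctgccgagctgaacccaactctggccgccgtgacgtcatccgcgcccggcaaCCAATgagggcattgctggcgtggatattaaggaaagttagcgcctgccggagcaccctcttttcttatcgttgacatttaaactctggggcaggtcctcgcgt
Pax7: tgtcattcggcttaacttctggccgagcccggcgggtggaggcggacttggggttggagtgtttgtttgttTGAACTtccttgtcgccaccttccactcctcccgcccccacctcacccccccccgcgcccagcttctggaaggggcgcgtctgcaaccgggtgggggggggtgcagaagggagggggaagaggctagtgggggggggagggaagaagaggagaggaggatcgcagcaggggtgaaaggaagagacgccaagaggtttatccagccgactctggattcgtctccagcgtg

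AGTTCA was found in 14% of all 32851 promoters of this length and in 1 of the 8 of the members, that of Pax7. CCAAT was found in 37.4% of all and in 2 of the 8, of Pax6 and Pax8. AGGTCA (16.3% of all), GTCACGC (2.09%), TAATTA (5.29%) and TATAAA (13.6%) were in none of the 8. The 8 held 7 to 30 CpG dinucleotides, beside a median of 7 in all promoters.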

How the data were processed

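The authors deposited 1 table of raw read counts per gene, with a column for each of the 48 libraries, and its values are whole numbers. Per the labels' protocols, libraries were sequenced as paired reads of 150 bases. Per the submitters' processing notes, HISAT2 and the build GRCm39 were used, while the counting tool, with its strand setting and annotation, is not given in the sources used here. Of 36983 rows, 48 repeated a gene identifier and were dropped. Groups follow the labels. Genes were tested with edgeR 4.0.16 (R 4.3.3): filterByExpr with a minimum count of 10, TMM scaling, and the quasi-likelihood test with Benjamini-Hochberg adjustment over all genes tested, called at 0.05. Time steps were fitted within a genotype (12 libraries), knockouts within a day (12 libraries) and interactions over a knockout and E14 (24 libraries). These made 41 comparisons, each adjusted on its own. The scripts were tested on simulated counts. Levels are TMM-scaled CPM computed from the counts over all 48 libraries, and the genes named from lists are up to 4 called genes with the largest change and a mean of at least 1 CPM, with all members of a short list named where its count is given. Likeness used log2 CPM with a prior count of 2.

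Members and lists were chosen with earlier results of these data known. Replicates of a group differed by more than sampling noise (chi-square per degree of freedom at least 6.634), so none was counted as a duplicate. Alternatives were DESeq2 1.42.0, RLE scaling, all libraries in 1 fit, other filters on low counts, a replicate block, leaving out each library and, chosen after seeing the data, leaving out the 4 libraries that stood apart. Intervals of read counts cover counting error only. Some genes that the naming rule picks are not reported here.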

Additional observations from a re-analysis of the deposited data

How the results depend on the processing

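Over the time steps, 29 member calls were made, and the number was 24 to 31 under every alternative run and 26 to 30 when 1 library was left out. Between knockouts and E14 there were 2 calls, and 8 with DESeq2, 9 with all 48 libraries in 1 fit, 1 with a replicate block (Pax3 in the double knockout at day 15 was lost, adjusted p = 0.0624) and 1 to 5 when 1 library was left out. The count of 9 includes Pax7 at day 15, which had enough reads to be tested in that fit. RLE scaling and both other filters left 2. Between the double and single knockouts there were 0 calls, and 1 with DESeq2. For interactions there were 0, 1 with DESeq2, and 0 to 1 when 1 library was left out. No called change reversed its sign in any of these settings. Of 888 alternative values of the time steps, 34 lost a call and 12 gained one, and of 873 values of knockouts against E14, 14 lost and 17 gained one. RLE scaling moved the median of all genes by at most 0.0501 on the log2 scale. Replicate numbers were not taken as pairs: same-numbered libraries deviated together, with all 3 correlations over 0.1, in 0 of 12 time, 1 of 12 knockout and 2 of 8 double knockout comparisons. In these, 25 of 36, 23 of 36 and 13 of 24 libraries correlated best with their own number. With 3 candidates for each library, these counts are above what unlinked numbers would give. A shared part of the spread is thus possible, and the replicate block allows for it. With the replicate block the time steps gave 30 calls. Low counts limit Pax5 at every day, Pax7 outside day 6, and Pax2 and Pax3 at days 0 and 2.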
